A study of Mus musculus with 9 samples.

Results

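The long noncoding RNA EPR and 7 protein-coding genes of the same stretch of mouse chromosome 8 were followed through RNA-Seq libraries of NMuMG cells. The 8 genes were picked by their gene symbols in the deposited abundance files, out of 52459 gene symbols: EPR itself, which the annotation lists as *BC030870*, and *Apela*, *Tmem192*, *Klhl2*, *Msmo1*, *Cpe*, *Tma16* and *Naf1*. NMuMG is an immortalized mouse mammary gland epithelial cell line. Of its 9 libraries, 3 are from mock cells, which carry the empty pBICEP-CMV-2 vector, 3 from cells overexpressing EPR from that vector, and 3 from cells overexpressing EPRSTOPE, the same RNA with the second codon of its open reading frame (ORF) changed to a stop codon. All cells were untreated and all populations, mock included, had been stably transfected and kept under G418 selection, so any influence of transfection and selection on a population cannot be told apart from that of its transgene. The viral CMV promoter drives the transgene outside its own locus. The methods call the libraries biological triplicates without saying whether they came from separate pools. The p-values therefore set differences against the spread between these libraries and need not hold for other transfectant pools.

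Some long noncoding RNAs act in *cis*, on genes next to the locus they are transcribed from, whereas an RNA supplied from a plasmid meets other loci in *trans*. The libraries therefore address whether the genes around EPR differ when the RNA is supplied from elsewhere, and whether they differ with the intact ORF. The insert covers nearly the whole annotated transcript, so reads from the plasmid and from the chromosomal gene cannot be told apart in these values.

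EPR lies on the minus strand at chr8:65085613-65129563 of GRCm38, has 3 exons of 322, 134 and 1051 nt and gives 1 annotated transcript of 1507 nt (ENSMUST00000098713.4, gene ENSMUSG00000074300.4). The ORF spans positions 345 to 560 of the transcript, counted from the 5′ end with the stop codon included, which is 14.3% of its length. It opens in exon 2 and closes in exon 3, and holds 71 codons before the stop codon. It is shown because EPR and EPRSTOPE differ within it: capitals mark the start codon, the second codon that EPRSTOPE turns into a stop, and the natural stop codon at the end. Below it stand the designed oligonucleotides of the study that lie across those first codons, written 5′ to 3′ and antisense to the transcript, with the bases opposite the start codon and the second codon in capitals.
EPR ORF: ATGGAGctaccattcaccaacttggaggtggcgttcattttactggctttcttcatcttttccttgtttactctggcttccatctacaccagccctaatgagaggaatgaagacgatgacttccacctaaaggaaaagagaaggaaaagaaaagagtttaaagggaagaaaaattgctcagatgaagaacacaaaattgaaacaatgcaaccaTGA
qRT-PCR reverse primer: gCTCCATggaagactaacgg
ChIRP oligonucleotide 341: tgaatggtagCTCCATggaa

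The reverse primer of the EPR qRT-PCR assay covers positions 332 to 351 and so spans the codon that EPRSTOPE alters. ChIRP, in which biotinylated antisense oligonucleotides pull down an RNA with the chromatin it contacts, used 10 such oligonucleotides, of which 2 overlap the ORF and 1 the altered codon. RNA-Seq counts draw on the whole transcript and do not hang on that codon alone.

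The neighbours lie on both sides of EPR. Toward lower coordinates come *Apela* at 48.3 kb, *Tmem192* at 116.6 kb, *Klhl2* at 235.6 kb, *Msmo1* at 351.8 kb and *Cpe* at 392.6 kb. Toward higher coordinates *Tma16* lies 1344 kb and *Naf1* 1731 kb away. The intervening *March1*, a ubiquitin ligase gene 488.3 kb from EPR, had 14 counts in the 9 libraries together and was not tested.

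Sequencing depth was 5972457 to 11876435 estimated counts per library, with medians of 9266782 in mock, 10710414 in EPR and 9058484 in EPRSTOPE libraries, and 3 counts corresponded to 0.253 to 0.502 CPM, that is counts scaled to 1000000 per library. Of the epithelial markers, *Cldn3*, *Cldn4*, *Cldn7*, *Esrp1* and *Epcam* had no count in any mock library and *Cdh1*, which encodes E-cadherin, averaged 0.843 CPM there, so the defining junction genes of the labelled cell type were nearly absent from the mock libraries, while the keratin genes *Krt8* and *Krt18* were abundant. The summed level of the 10 epithelial markers ran from 3692 to 4157 CPM in mock, from 9492 to 10601 CPM in EPR and from 10686 to 11023 CPM in EPRSTOPE libraries, with 6, 4 and 5 of the 10 under 1 CPM in every library. The sum of 10 mesenchymal markers ran from 4290 to 4437, from 2249 to 2476 and from 4019 to 4359 CPM in the same order, with 3 of 10 under 1 CPM in each condition. The epithelial sum thus differed between mock and both overexpressing populations, and the mesenchymal sum was lower in EPR than in both other conditions, while it overlapped between mock and EPRSTOPE libraries. That overlap hid single markers: in EPRSTOPE against mock 6 of the 7 tested mesenchymal markers had a log2 fold change below 0. *Cdh2* had 330.5 and 158.3 CPM and *Tnc* 214.5 and 50.4 CPM in mock and EPRSTOPE cells, whereas *Vim*, the most abundant, had 2634 and 3138 CPM. *Cdh1* averaged 556.3 CPM in EPR and 402.6 CPM in EPRSTOPE cells. These shifts accompany the comparisons below, and their part in the neighbours' values was not tested. In bulk RNA, fewer cells of a kind and less RNA per cell cannot be told apart.

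EPR RNA was first measured itself, since it checks which cells carry the transgene. Rounded counts were 0, 0 and 2 in the mock libraries, 271, 214 and 256 in the EPR libraries and 28, 39 and 33 in the EPRSTOPE libraries. Normalised levels were 0, 0 and 0.163 CPM in mock, 23.7, 27.0 and 23.9 CPM in EPR and 4.74, 4.17 and 3.80 CPM in EPRSTOPE cells. The 3 conditions did not overlap, all 6 overexpressing libraries held EPR RNA, and mock cells held next to none. The altered codon itself is not read by these counts, so they do not check which of the overexpressing libraries carry the intact ORF. The ratio of the pooled counts was 347 for EPR against mock (95% counting interval 95.8 to 2874) and 58.9 for EPRSTOPE against mock (15.9 to 493), both resting on the 2 mock counts. The study states a lower fold overexpression of EPR over mock for its transfectant pools, and the reason for that difference was not tested. EPR RNA was 5.90-fold more abundant in EPR than in EPRSTOPE cells (counting interval 4.79 to 7.35; log2 fold change 2.56 ± 0.20 SE, adjusted p = 1.99e-06). The populations with and without the intact ORF were thus not matched in the amount of the RNA, and any difference between them carries both. By TPM, the length-scaled share of a transcript in its library, which allows genes to be compared per length, EPR ranked 5306 to 5858 among all gene symbols in the EPR libraries and 10680 to 11569 in the EPRSTOPE libraries.

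**Figure D1:**
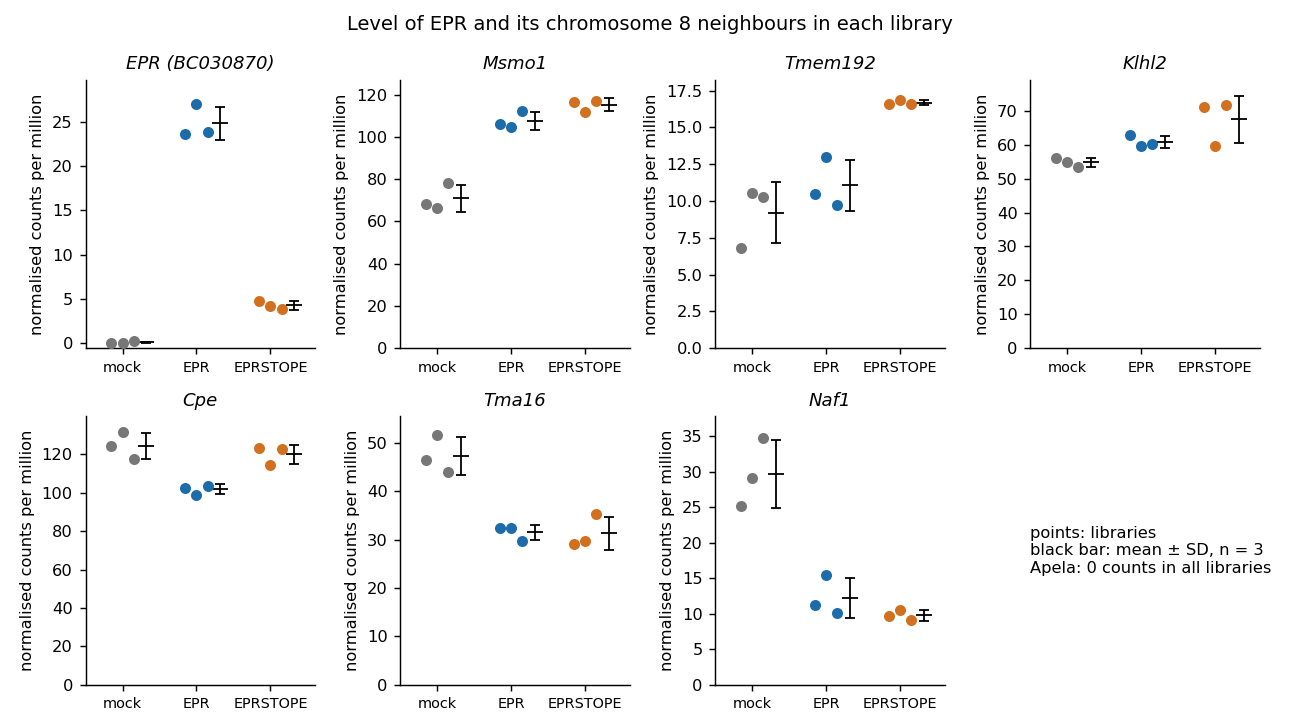
Normalised CPM of EPR and 6 neighbours in each library of mock, EPR and EPRSTOPE cells (points), with the mean ± SD of 3 libraries (black bars); the axes start at 0 except for a small margin below 0 in the EPR panel. *Msmo1* is higher, and *Tma16* and *Naf1* are lower, in all 6 libraries of both overexpressing populations than in the 3 mock libraries, whereas EPR RNA itself differs 5.90-fold between those populations.

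Of the 7 neighbours, 6 passed the filter of at least 1 CPM in at least 3 libraries, which all 15370 tested genes passed. In EPR against mock, 3 of the 6 were called, which took an adjusted p below 0.01 together with a fold change of more than 0.5 on the log2 scale, 1 upward and 2 downward, against 28.1% of all tested genes (15.2% higher, 12.9% lower). In EPRSTOPE against mock, 4 of the 6 changed, 2 in each direction, against 28.0% of all genes (15.6% higher, 12.4% lower). Between EPR and EPRSTOPE none of the 6 passed in edgeR's quasi-likelihood test, against 13.2% of all genes (6.86% higher, 6.35% lower). DESeq2 also called 0 and limma-voom 1, and 2 of the 6 had an unadjusted p under 0.05 in edgeR. An adjusted p under 0.01, at any fold change, was reached by 5755, 5678 and 2998 of all 15370 genes in the 3 comparisons. An unadjusted p under 0.05 is a looser limit, so counts of genes at it, here and below, do not set them apart. For 5, 5 and 2 of the 6 neighbours the libraries of both conditions were fully apart, beside 57.8%, 56.4% and 43.0% of all genes. Calls were common across the transcriptome, and 6 genes are too few to be set apart from it by number. Both comparisons with mock share the same mock libraries, so their values below are given side by side and not as separate evidence. The exact two-sided permutation test of 3 libraries against 3 cannot give a p below 0.1, and it gave that p wherever the libraries did not overlap.

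**Figure D2:**
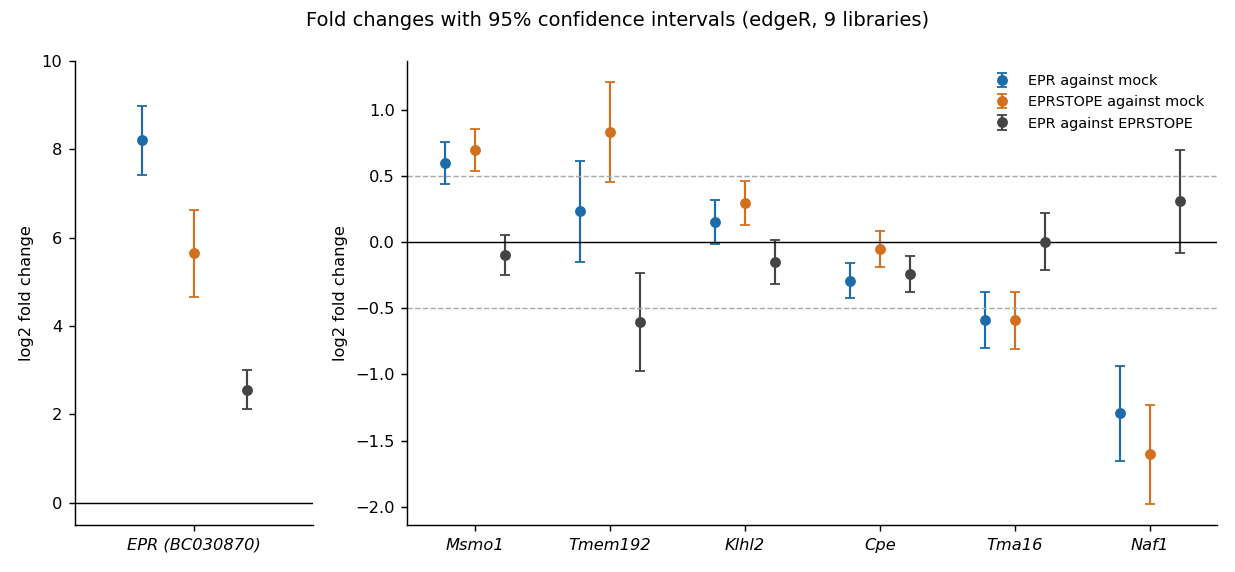
Log2 fold changes of EPR (left) and of its 6 tested neighbours (right) in the 3 comparisons; points are edgeR estimates, bars their 95% confidence intervals, and dashed lines the log2 cut-off of 0.5. *Msmo1* lies above the upper line and *Naf1* below the lower line against mock in both populations, and the intervals of EPR against EPRSTOPE include 0 for *Msmo1*, *Klhl2*, *Tma16* and *Naf1*.

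*Apela* (ENSMUSG00000079042.10, chr8:65028417-65037336, minus strand) is the nearest member and encodes a small secreted peptide hormone of the apelin receptor. Its 2 annotated transcripts had 0 counts in all 9 libraries. A count of 0 allows up to 0.253 to 0.502 CPM in a library and 0.0363 CPM over the 9 together, counting error only, and no fold change can be given. The rest of the system was hardly detected either: *Apln*, the other ligand, had 35 counts and *Aplnr*, the receptor, 17 counts over the 9 libraries, and neither passed the filter.

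*Tmem192* (ENSMUSG00000025521.15, chr8:64947185-64969033, plus strand), a protein of the lysosomal membrane, was the nearest neighbour with a measurable level. It had 6.84, 10.6 and 10.3 CPM in mock, 10.5, 13.0 and 9.72 CPM in EPR and 16.6, 16.9 and 16.6 CPM in EPRSTOPE libraries. The mock and EPR libraries overlapped, and all EPRSTOPE libraries lay above both. Against mock it rose 1.78-fold in EPRSTOPE cells (log2 fold change 0.84, standard error 0.17, adjusted p = 0.00162), whereas the log2 fold change in EPR cells was 0.24 (adjusted p = 0.297, 95% interval -0.15 to 0.62). The direct comparison of EPR with EPRSTOPE gave -0.60 (95% interval -0.97 to -0.23, adjusted p = 0.0188), which missed the adjusted p cut-off. That value depended on the fit: the adjusted p was 0.0082 with limma-voom, 0.00824 without the filter on low counts and 0.00661 without mock library 203, each past the cut-off.

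Other proteins of the lysosomal membrane were taken as a list of 10, all tested. Of all genes 28.1% were called in EPR against mock, 28.0% in EPRSTOPE against mock and 13.2% in EPR against EPRSTOPE. In EPRSTOPE against mock 4 rose and none fell, with a median log2 fold change of 0.46 beside -0.04 over all genes. In EPR against mock none was called by edgeR and 5 had an unadjusted p under 0.05, with a median of 0.19 beside -0.01. *Lamp1*, the major lysosomal membrane glycoprotein, *Scarb2*, the receptor that carries glucocerebrosidase to lysosomes, and the small membrane protein gene *Laptm4a* rose by 0.65, 0.65 and 0.61 on the log2 scale in EPRSTOPE cells. In EPR cells these 3 had 0.30, 0.34 and 0.35 (edgeR adjusted p = 0.000401, 0.000828 and 0.000416), under the fold cut-off only. *Cd63*, a tetraspanin of late endosomes, was the only member of the list called between EPR and EPRSTOPE, at -0.66 (adjusted p = 9.85e-06).

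*Klhl2* (ENSMUSG00000031605.8, chr8:64739675-64850017, minus strand) encodes an actin-binding Kelch protein that brings WNK kinases to the CUL3 ubiquitin ligase. Levels were 56.1, 54.98 and 53.5 CPM in mock, 62.9, 59.6 and 60.2 CPM in EPR and 71.2, 59.6 and 71.8 CPM in EPRSTOPE libraries. Every overexpressing library lay above every mock library, but the differences in CPM were small. On the log2 scale it differed by 0.15 in EPR cells (95% interval -0.01 to 0.32, adjusted p = 0.122) and 0.30 in EPRSTOPE cells (0.13 to 0.47, adjusted p = 0.00671), the latter under the fold cut-off. EPR against EPRSTOPE gave -0.15 (-0.31 to 0.02). With counts rescaled from TPM and transcript length the log2 fold change was 0.65 in EPR against mock (adjusted p = 0.0686), 0.34 in EPRSTOPE against mock (adjusted p = 0.354) and 0.32 in EPR against EPRSTOPE, so that neither its size in EPR cells nor the direction between the overexpressing populations was settled. The antisense gene *Gm45345* inside this locus had 18 counts over the 9 libraries beside 4979 for *Klhl2*, and no use of strand in the counting is stated.

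Some of the CUL3 and WNK genes held larger differences against mock than *Klhl2* itself. Of 9 genes on that list 7 were tested; 2 rose and 1 fell in EPR against mock, 2 rose and 2 fell in EPRSTOPE against mock, and none was called between EPR and EPRSTOPE, where 5 had an unadjusted p under 0.05 in edgeR, with median log2 fold changes of -0.13, -0.38 and 0.15. *Slc12a2*, the sodium-potassium-chloride cotransporter that WNK signalling activates, rose from 371.8 ± 6.41 CPM in mock to 1525 ± 80.7 CPM in EPR and 1375 ± 70.4 CPM in EPRSTOPE cells (SD, n = 3). *Stk39*, the kinase between WNKs and that cotransporter, fell from 28.7 CPM in mock to 3.75 and 1.99 CPM. *Wnk4* rose by 1.66 and 2.15 on the log2 scale, and *Wnk1* had -0.46 in EPR cells, under the fold cut-off, and fell by 0.56 in EPRSTOPE cells. The list therefore held members that moved in opposite directions, beside 28.1%, 28.0% and 13.2% of all genes called in the 3 comparisons.

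*Msmo1* (ENSMUSG00000031604.10, chr8:64718139-64733792, minus strand), the sterol C4-methyl oxidase of cholesterol synthesis, rose in both populations. It had 68.0, 66.2 and 78.4 CPM in mock, 106.0, 104.6 and 112.3 CPM in EPR and 116.7, 111.6 and 117.2 CPM in EPRSTOPE libraries. The lowest overexpressing library stood well above the highest mock library, and the 2 overexpressing populations overlapped. The increase was 1.52-fold in EPR cells (log2 fold change 0.60, standard error 0.07, adjusted p = 2.19e-05) and 1.62-fold in EPRSTOPE cells (0.70, standard error 0.07, adjusted p = 6.2e-06). EPR and EPRSTOPE differed by -0.10 (95% interval -0.25 to 0.06, adjusted p = 0.34). With counts rescaled from TPM and transcript length the fold changes stayed at 0.59 and 0.65 but their adjusted p rose to 0.0186 and 0.0122, which ended both calls.

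Cholesterol synthesis genes other than *Msmo1* numbered 22, all tested, the regulators *Srebf2*, *Scap* and *Insig1* included. In EPR against mock 8 rose, 1 fell and 13 did not pass, with a median log2 fold change of 0.25. In EPRSTOPE against mock 7 rose, 1 fell and 14 did not pass, with a median of 0.15. Of all genes 15.2% and 15.6% were called higher and 12.9% and 12.4% lower against mock, with medians of -0.01 and -0.04, and 13.2% were called between EPR and EPRSTOPE. *Sqle*, squalene epoxidase, rose by 0.87 and 1.15 and *Fdft1*, squalene synthase, by 1.18 and 1.52 in EPR and EPRSTOPE cells. *Dhcr7*, which makes cholesterol from its immediate precursor, was the member that fell in both, by 0.83 and 1.28. Between EPR and EPRSTOPE 1 gene of the list was higher, *Cyp51* (log2 fold change 0.81), and 1 lower, *Fdps* (-0.52), and the other 20 did not pass; *Fdps* was named after its value was seen.

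*Cpe* (ENSMUSG00000037852.8, chr8:64592542-64693054, minus strand), carboxypeptidase E, trims basic residues from prohormones in secretory granules. It measured 124.1, 131.4 and 117.5 CPM in mock, 102.6, 98.8 and 103.6 CPM in EPR and 123.2, 114.2 and 122.7 CPM in EPRSTOPE libraries. The EPR libraries were the lowest of all, and the mock and EPRSTOPE libraries overlapped. The log2 fold change of EPR against mock was -0.29 (95% interval -0.42 to -0.15, adjusted p = 0.002), under the fold cut-off, that of EPRSTOPE against mock -0.05 (-0.19 to 0.08), and that of EPR against EPRSTOPE -0.24 (-0.37 to -0.10, adjusted p = 0.0122). Prohormone-processing genes other than *Cpe* numbered 12, of which 7 were tested. None fell and 3 rose in EPR against mock, none fell and 4 rose in EPRSTOPE against mock, with medians of 0.71 and 0.63. Over all genes the medians were -0.01 and -0.04, 28.1% and 28.0% were called against mock, and 13.2% between EPR and EPRSTOPE. *Pcsk6*, a secreted proprotein convertase, rose from 2.75 CPM in mock to 56.2 and 53.3 CPM in EPR and EPRSTOPE cells. *Pam*, which amidates peptides, rose from 122.7 to 267.4 and 246.9 CPM, and *Cpd*, a carboxypeptidase of the Golgi, rose by 0.63 in EPRSTOPE cells. In EPR cells *Cpd* had 0.43 (edgeR adjusted p = 2.76e-05), under the fold cut-off only. *Cpm*, a carboxypeptidase of the cell surface, had 0.374, 1.93 and 7.23 CPM in mock, EPR and EPRSTOPE cells and was lower in EPR than in EPRSTOPE (log2 fold change -1.90, adjusted p = 0.000556), as the sole member of the list called between them.

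*Tma16* (ENSMUSG00000025591.6, chr8:66473118-66486530, minus strand), an assembly factor of the large ribosomal subunit, fell in both populations. It had 46.5, 51.7 and 44.0 CPM in mock, 32.4, 32.5 and 29.8 CPM in EPR and 29.1, 29.7 and 35.3 CPM in EPRSTOPE libraries. All 6 overexpressing libraries lay below the mock libraries and mixed with each other. The fold changes were nearly the same size, with log2 fold changes of -0.59 ± 0.10 (SE, adjusted p = 0.000307) for EPR and of -0.59 ± 0.10 (SE, adjusted p = 0.000326) for EPRSTOPE. EPR against EPRSTOPE gave 0.00 (95% interval -0.21 to 0.22, adjusted p = 0.983). Counts rescaled from TPM and transcript length gave -0.33 (adjusted p = 0.113) and -0.39 (adjusted p = 0.0701) against mock, which ended both calls. The antisense gene *Gm15356* beside it had 2 counts.

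Among 13 other assembly factors of the large ribosomal subunit, 3 fell and none rose in EPR against mock, with a median of -0.22, and 1 rose and none fell in EPRSTOPE against mock, with a median of 0.03. Across all genes 28.1% and 28.0% were called against mock and 13.2% between EPR and EPRSTOPE. In EPR against EPRSTOPE 12 of the 13 log2 fold changes were below 0, with a median of -0.26, and 1 was called, that of *Ebna1bp2* (-0.51, adjusted p = 0.000304). *Rrs1*, *Ebna1bp2* and *Wdr12*, which act in that assembly, fell in EPR cells by 0.66, 0.52 and 0.51. *Bop1*, the partner of *Wdr12* in the PeBoW complex, rose in EPRSTOPE cells by 0.64. In EPR cells *Bop1* had 0.36 (edgeR adjusted p = 0.00015), under the fold cut-off only. *Tma16* was lower in both populations, and no other factor on the list was called lower in EPRSTOPE cells. *Gtpbp4* of the list had -0.34 in both populations (edgeR adjusted p = 0.000531 and 0.000558), under the fold cut-off only.

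*Naf1* (ENSMUSG00000014907.10, chr8:66860217-66890564, plus strand) showed the largest change of the neighbours against mock in both populations. Its product assembles H/ACA ribonucleoproteins, the particles that guide pseudouridylation and include telomerase, and later gives way to GAR1. Levels were 25.2, 29.0 and 34.7 CPM in mock, 11.3, 15.4 and 10.1 CPM in EPR and 9.66, 10.6 and 9.09 CPM in EPRSTOPE libraries. The highest overexpressing library lay far below the lowest mock library. The decrease was 2.45-fold in EPR cells (log2 fold change -1.29, standard error 0.16, adjusted p = 3.86e-05) and 3.04-fold in EPRSTOPE cells (-1.60, standard error 0.17, adjusted p = 8.76e-06), and EPR against EPRSTOPE gave 0.31 (95% interval -0.08 to 0.70, adjusted p = 0.224). The fold change against mock ran from -1.47 to -1.16 in EPR and from -1.71 to -1.48 in EPRSTOPE cells over 16 other settings, all past the cut-offs.

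Against mock the partners of *Naf1* moved less than *Naf1*. Of 7 H/ACA and telomerase genes 6 were tested, *Tert* being too low. *Dkc1*, the pseudouridine synthase of the particle, was the only one called in EPR against mock, where it fell by 0.54. In EPRSTOPE against mock *Gar1* fell by 0.53 and *Nufip1*, which helps assemble such particles, rose by 0.61. None was called between EPR and EPRSTOPE by edgeR, where 4 had an unadjusted p under 0.05 and *Dkc1* and *Nhp2*, a core protein of the particle, had -0.40 and -0.44 beside 0.31 for *Naf1*. The medians in the 3 comparisons were -0.37, -0.03 and -0.28, beside -0.01, -0.04 and 0.01 over all genes, of which 28.1%, 28.0% and 13.2% were called.

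**Figure D3:**
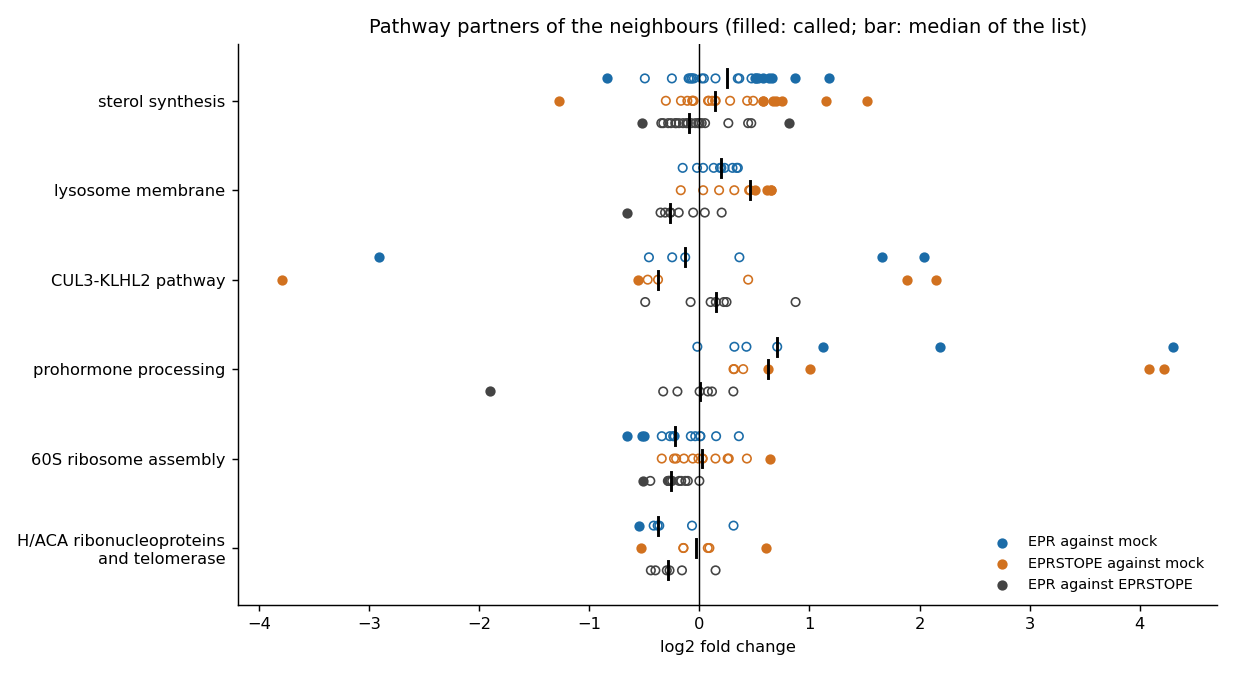
Log2 fold changes of the genes in 6 pathway lists around the neighbours, in EPR against mock (blue), EPRSTOPE against mock (orange) and EPR against EPRSTOPE (grey); filled points are called, and black bars are medians of the list. Against mock 8 and 7 of the 22 sterol genes are called higher and 1 lower in each, beside 15.2% and 15.6% of all genes called higher. The CUL3-KLHL2 list has members far out on both sides.

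Per length, the order of the neighbours changed between conditions. In mock cells *Cpe* led with 99.99 ± 10.8 TPM (SD, n = 3), followed by *Msmo1* with 59.4 ± 9.47, *Klhl2* with 22.8 ± 6.58, *Tma16* with 14.1 ± 2.55, *Naf1* with 11.6 ± 0.72 and *Tmem192* with 10.8 ± 2.13 TPM, of which the last 3 overlapped. In EPR cells *Msmo1* led with 78.2 ± 7.86 TPM, ahead of *Cpe* with 62.0 ± 4.60 and *Klhl2* with 31.2 ± 4.48, and EPR itself stood at 15.7 ± 1.88 TPM, above *Tmem192* with 11.7 ± 1.33, *Tma16* with 9.78 ± 0.91 and *Naf1* with 3.89 ± 1.03 TPM. In EPRSTOPE cells *Msmo1* had 83.0 ± 7.75 and *Cpe* 72.3 ± 12.9 TPM, whose libraries overlapped, and EPR with 2.77 ± 0.53 TPM was beside *Naf1* with 3.23 ± 0.37 TPM at the bottom. On the TPM scale *Cpe* differed more from mock than on the CPM scale, with log2 ratios of mean levels of -0.69 in EPR and -0.47 in EPRSTOPE cells. *Msmo1* differed less on the TPM scale, with 0.40 and 0.48, and *Klhl2* differed more in EPR cells, with 0.45 against mock and 0.30 against EPRSTOPE.

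Transcript estimates show where such shifts between scales arise. The 7 neighbours have 29 annotated transcripts, of which 24 were tested. Calls numbered 0 in EPR against mock, 1 in EPRSTOPE against mock and 0 in EPR against EPRSTOPE, beside 4.07%, 4.64% and 0.854% of all 45412 tested transcripts. In edgeR 6, 7 and 1 of the 24 had an unadjusted p under 0.05, and the share of all transcripts at that limit was not computed. The common coefficient of variation between libraries was 0.709 for transcripts against 0.132 for genes, so transcript values were far less precise. The part that splitting reads among transcripts had in this was not tested.

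The transcript called was *Naf1*-201, the coding form, with 6.03, 8.64 and 8.86 TPM in mock, 3.09, 4.79 and 2.76 TPM in EPR and 2.89, 3.63 and 2.13 TPM in EPRSTOPE libraries (log2 fold change -1.52 in EPRSTOPE against mock, adjusted p = 0.00545). It carried 94.6% of the gene's counts in mock and 98.6% and 98.1% in the overexpressing cells. *Msmo1*-201, the full coding transcript, had 5.09, 11.5 and 10.5 TPM in mock, 19.1, 20.6 and 23.5 TPM in EPR and 29.0, 33.5 and 16.9 TPM in EPRSTOPE libraries, and its mean share of the gene's counts was 28.3%, 44.3% and 49.8%. Its log2 fold changes of 1.29 and 1.52 had adjusted p of 0.0349 and 0.0164, short of the cut-off. *Tma16* counts lay mostly on transcript 202, annotated as a target of nonsense-mediated decay, with 54.1%, 56.4% and 57.3% in the 3 conditions, and these shares differed from mock by less than the SD of the overexpressing libraries. The short noncoding *Cpe*-202 had 42.7 ± 7.40 TPM in mock, 18.9 ± 3.05 in EPR and 22.8 ± 17.4 TPM in EPRSTOPE cells (SD, n = 3), whereas the coding *Cpe*-201 had 43.5 ± 9.24, 38.4 ± 0.82 and 47.2 ± 9.20 TPM. The lower TPM of *Cpe* thus lay mostly in *Cpe*-202, whose mock and EPR libraries did not overlap and whose EPRSTOPE libraries scattered widely. In the edgeR test its log2 fold changes against mock of -0.89 in EPR and -0.60 in EPRSTOPE cells had adjusted p of 0.36 and 0.582, so neither was called.

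**Figure D4:**
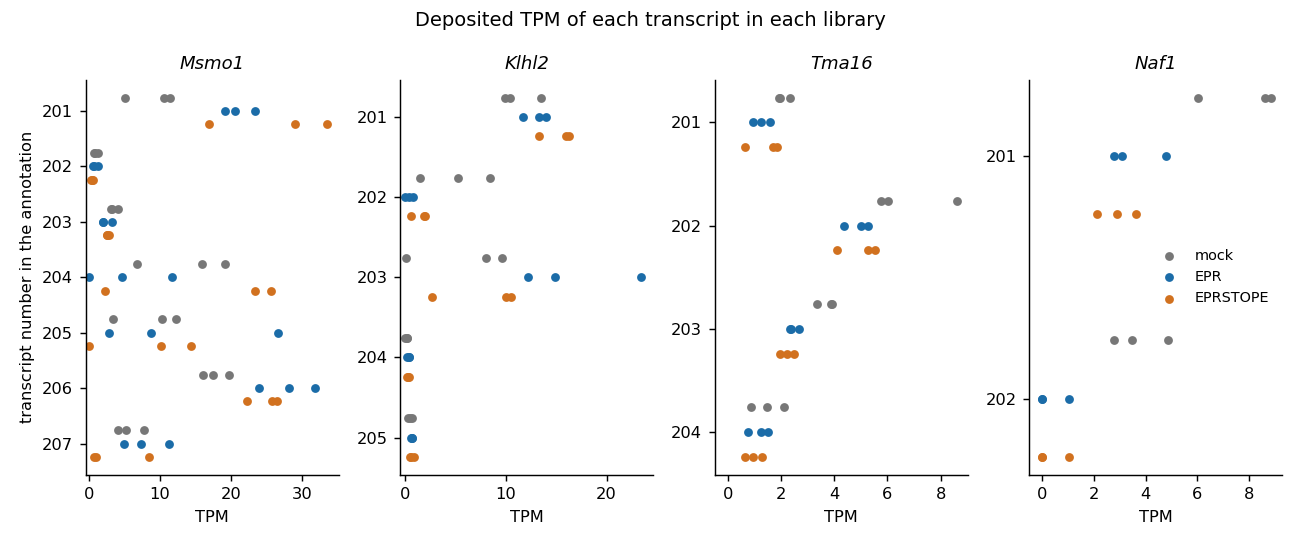
Deposited TPM of every annotated transcript of *Msmo1*, *Klhl2*, *Tma16* and *Naf1* in each library of mock (grey), EPR (blue) and EPRSTOPE (orange) cells. *Naf1*-201 is lower in all overexpressing libraries than in mock, *Msmo1*-201 is higher in all of them, and short transcripts such as *Msmo1*-204 and *Klhl2*-203 scatter between libraries of the same condition.

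Within 2 Mb of EPR the annotation places 58 other genes, of which 26 had no count in any library and 8 were tested: the 6 neighbours and the long intergenic noncoding RNA genes *Gm35368* and *Gm45518*. *Gm35368* had 0.772, 1.76 and 1.18 CPM in mock, EPR and EPRSTOPE cells and *Gm45518* 5.39, 4.29 and 4.41 CPM, and neither was called. The other 24 had counts but stayed under the filter. Within 5 Mb, 51 of 165 genes were tested, and 15, 14 and 9 were called in the 3 comparisons (29.4%, 27.5% and 17.6%), near the share of all genes, as was chromosome 8 as a whole with 24.8%, 24.4% and 12.4% of 832 tested genes. The study, citing unpublished RNA-Seq, lists *Palld*, *Cpe*, *Klhl2*, *Tmem192*, *Tma16* and *Nat2* as nearby genes that did not change when the cytokine TGF-β nearly removed EPR. Its list also holds *Sc4mol*, an older symbol of *Msmo1*, and *Naf16* and *Pssd*, which may stand for *Naf1* and *Psd3*. That observation concerns a loss of EPR under treatment, unlike the overexpression in untreated cells compared here. In the present comparisons *Msmo1*, *Tma16* and *Naf1* were called against mock in both populations. *Palld*, an actin-bundling protein gene 3183 kb from EPR, rose in EPR against mock (log2 fold change 1.02, adjusted p = 0.000658). It was higher in EPR than in EPRSTOPE cells (1.63, adjusted p = 6.61e-05), with -0.61 in EPRSTOPE against mock (adjusted p = 0.028), which did not pass. *Nat2*, an N-acetyltransferase gene 2365 kb away on the other side, was not called, with 0.41, 0.25 and 0.16. *Psd3*, 2560 kb away on the same side as *Nat2*, had -0.13 in EPR against mock and was not called there. It fell by 0.65 in EPRSTOPE against mock (edgeR adjusted p = 2.85e-05). In EPR against EPRSTOPE it was higher by 0.51 (edgeR adjusted p = 0.000419).

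**Figure D5:**
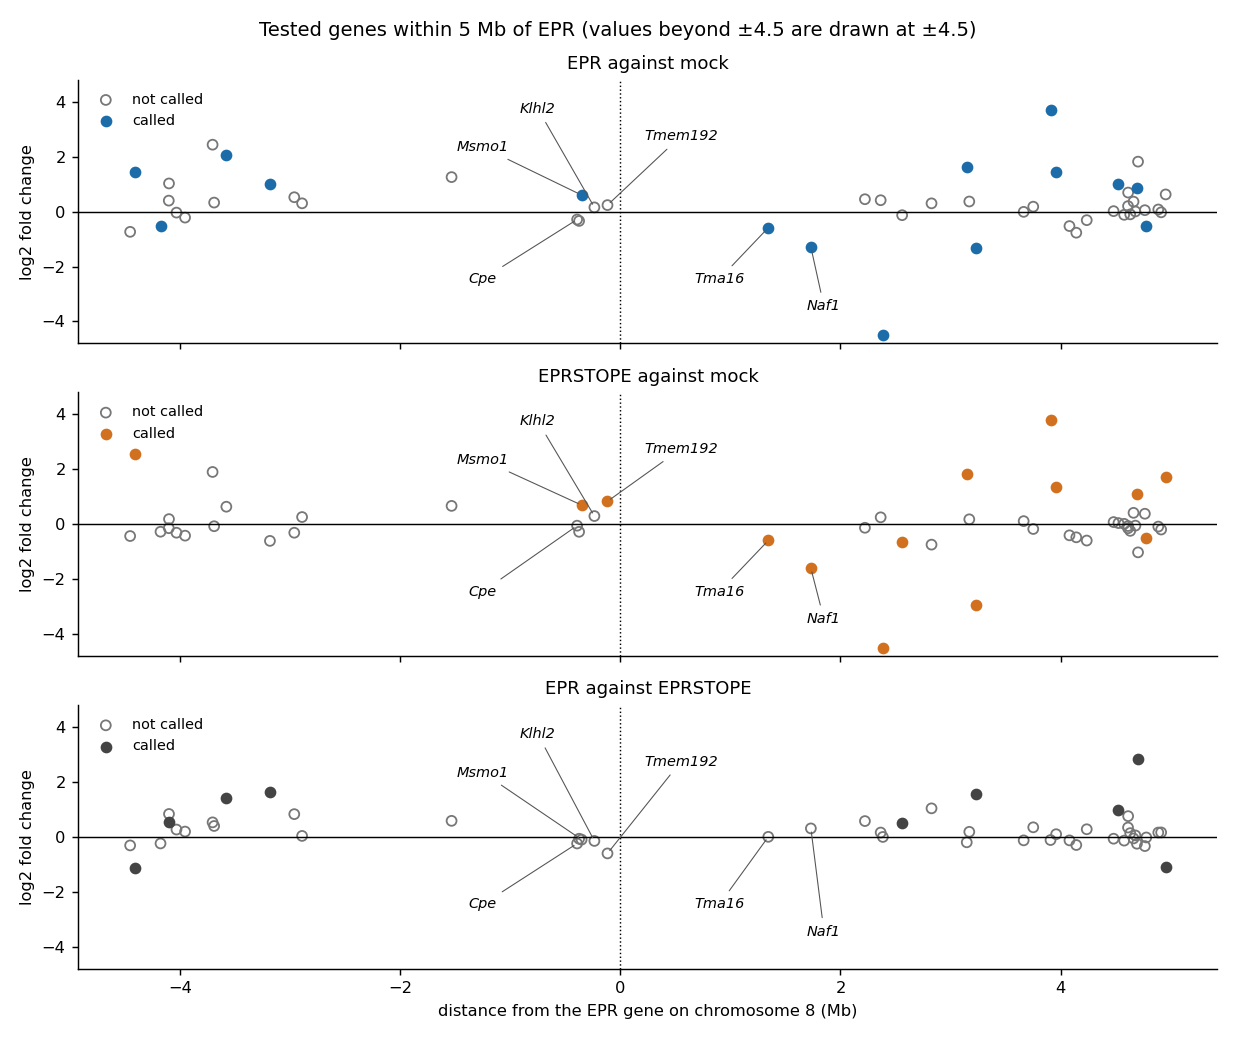
Log2 fold change of each tested gene within 5 Mb of EPR against its distance from the EPR gene in Mb (lower coordinates to the left), in the 3 comparisons; filled points are called, and values beyond 4.5 are drawn at 4.5. Called genes lie on both sides of EPR and in both directions, 15, 14 and 9 of 51, beside 28.1%, 28.0% and 13.2% of all genes. Within 2 Mb only 8 genes were tested, too few for the absence of calls there in EPR against EPRSTOPE to be set apart from that share.

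Promoter sequence was compared for the members that RefSeq promoter windows on GRCm38.p6 cover, which are *Msmo1*, *Klhl2*, *Tmem192*, *Apela* and *Tma16*, over the 250 bases before the RefSeq start. The motif CCAAT, the motif GGGCGG and the motif CACGTG were searched on both strands, where CACGTG reads alike on both and none of the motifs contains another; they occurred in 33.8%, 32.7% and 6.02% of 32851 promoter windows of that length. *Msmo1*, which rose, had 3 CCAAT and 2 GGGCGG matches, and 3 or more CCAAT matches occurred in 2.79% of windows. Its CCAAT matches are shown with 10 bases on each side, 5′ to 3′ on the gene's strand with CCAAT in capitals, since it is the member that holds the most of them. The RefSeq start of *Msmo1* lies inside the Gencode gene, whose own start is at 64733792. All 3 stretches are therefore upstream of the RefSeq start but downstream of the Gencode start. Part of the *Klhl2* window likewise lies inside its Gencode gene. The last stretch also holds 1 of the GGGCGG matches, in lower case.
*Msmo1* at chr8:64733724-64733748: atccgcgcagCCAATgactggcgcc
*Msmo1* at chr8:64733660-64733684: ttagcacggaCCAATcactgcacgg
*Msmo1* at chr8:64733619-64733643: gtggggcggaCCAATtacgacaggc
*Tma16*, which fell, had no CCAAT and 2 GGGCGG matches, which are in capitals in its window at chr8:66486531-66486780, minus strand.
*Tma16* upstream window: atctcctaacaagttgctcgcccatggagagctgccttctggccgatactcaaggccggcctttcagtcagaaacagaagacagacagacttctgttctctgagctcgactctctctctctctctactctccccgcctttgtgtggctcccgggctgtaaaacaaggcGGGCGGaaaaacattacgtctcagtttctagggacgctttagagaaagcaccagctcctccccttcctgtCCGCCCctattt
Of the others, *Klhl2* had 3 GGGCGG matches, *Tmem192* had 1, and *Apela* had 1 CCAAT match, and none of the 5 windows held CACGTG. The matches describe these windows only.

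The neighbours were also set beside the genes that tracked EPR RNA most closely through the 9 libraries. Over 11349 genes whose mean reached 5 CPM in some condition, Pearson's r of log2(CPM + 0.5) with EPR over the 9 libraries was highest for *Anxa4* (r = 0.998), *Myof* (0.997), *Prdx1* (0.997), *Ms4a4b* (0.996) and *Ttc38* (0.996). These are an annexin, a membrane-repair protein, a peroxiredoxin, a tetraspanning membrane protein and a tetratricopeptide-repeat protein. All have an EPRSTOPE level between mock and EPR, as *Ms4a4b* with 0.459, 5.31 and 18.1 CPM in mock, EPRSTOPE and EPR cells. These 5 were picked as the highest of all by this r, so the lower r of the neighbours is no result about them. Among the neighbours *Msmo1* had the highest r, 0.822 at rank 1584, followed by *Klhl2* with 0.476 and *Tmem192* with 0.344. *Naf1*, *Tma16* and *Cpe* had -0.764, -0.853 and -0.855, the last 2 larger in size than that of *Msmo1*. The points share libraries and conditions, and these values are a description.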

How the data were processed

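RNA-Seq was analysed from 9 libraries, grouped by their genotype labels and named by library number. The authors quantified read pairs with Kallisto 0.43.1 on mouse Gencode transcripts and deposited, per transcript, an unnormalised estimated count and a TPM value, which the authors' tool had scaled by effective length. Estimated counts were summed per gene symbol and rounded to whole numbers. Features that reached 1 CPM in 3 or more libraries entered edgeR 4.0.16 (quasi-likelihood, TMM, R 4.3.3), with 1 factor of 3 levels fitted to all 9 libraries and Benjamini-Hochberg adjustment over all genes. Cut-offs followed the study's methods, adjusted p below 0.01 with a fold change of more than 0.5 on the log2 scale. CPM values are TMM-normalised per 1000000 counts of the tested genes.

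Intervals of EPR counts are 95% exact counting intervals and, like the limits for counts of 0, cover counting error only. Libraries of a condition differed beyond counting noise (chi-square per degree of freedom 4.65 to 9.64), more than 1 library deposited again would; this does not tell cultures from repeat libraries of 1 RNA. Alternatives were DESeq2 1.42.0, limma 3.58.1 with voom, RLE factors, 2 other filters, counts rescaled from TPM and transcript length, an adjusted p of 0.05, transcripts in place of genes, other windows around EPR, a fit of the compared conditions and leaving out each library. Single genes were also compared by exact permutation tests.

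Named genes were the 8 members, tested genes within 2 Mb of EPR, *Palld* and *Nat2*. At most 4 members per pathway list with the largest called changes and the 5 genes most like EPR were also named. *Fdps*, *Nhp2*, *Gtpbp4* and *Psd3* were added after their values were seen. Members and lists were chosen with earlier results of these data known. The sterol list and its counts leave out 1 gene that is not reported here. Positions and the EPR transcript are from Gencode M21 (GRCm38), promoter windows from RefSeq, and oligonucleotides from the study's supplementary list. Scripts used scipy 1.17.1, numpy 2.4.6 and pandas 2.3.3 in Python 3.11.15, and figures matplotlib 3.10.9.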

Additional observations from a re-analysis of the deposited data

How the results depend on the processing

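Of 333 fold changes of single members under alternatives, 320 kept their direction and their side of the cut-offs, 4 lost the call, 3 gained it and 6 turned in sign. Counts rescaled from TPM and transcript length lowered the neighbours called from 3 to 1 in EPR against mock and from 4 to 2 in EPRSTOPE against mock, through *Msmo1* and *Tma16*, and gave 940 called genes in EPR against EPRSTOPE; they turned *Klhl2* there to 0.32. Testing transcripts left 0 and 1 neighbours and 1850, 2107 and 388 called features in the 3 comparisons, with the larger spread between libraries. An adjusted p under 0.05 alone called 7478, 7442 and 4637 genes, and 2 neighbours in EPR against EPRSTOPE. There limma-voom, no filter and leaving out mock library 203 each called 1 neighbour, *Tmem192* (0 to 1 over all libraries left out). *Tma16* in EPR against EPRSTOPE, not called in any setting, was -0.000199 with limma-voom and was -0.0129, -0.0122, -0.0329 and -0.0398 without EPR libraries 206 and 207 and EPRSTOPE libraries 209 and 210, with 0.0983, without EPRSTOPE library 211, as the highest value. Within 1 Mb of EPR 1 and 2 genes were called against mock, and within 5 Mb 15, 14 and 9; the windows hold 5 and 51 tested genes. No paired analysis was possible because the library numbers are not shared between conditions. Depth limits *Apela*, at 0 counts, and the mock level of EPR, which rests on 2 counts.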
